A study of Drosophila melanogaster with 2 samples.

Results

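The 8 genes described here are the core of the Notch pathway in *Drosophila melanogaster*: the receptor *N*, the ligands *Dl* and *Ser*, the receptor-modifying glycosyltransferase *fng*, the ubiquitin ligase *neur*, and the nuclear factors *Su(H)*, *H* and *mam*. They were listed by name for their place in the pathway, with earlier results of these data known, and are 8 of 13945 protein-coding genes on the 6 main chromosome arms. Binding of a tagged Zfh2, a zinc finger and homeodomain protein, was mapped by ChIP-seq, the sequencing of DNA precipitated with a protein, in whole embryos of both sexes, collected over 0 to 24 hours. Both libraries, biological replicates 1 and 2, came from 1 transgenic line that carries Zfh2 with green fluorescent protein at its C terminus, and a GFP antibody was used, although the label's antibody field reads zfh2. There was 1 group, so nothing below is a contrast between conditions and no test was made. Because whole embryos of all ages were pooled, fewer bound cells and weaker binding per cell cannot be told apart.

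Notch signalling passes between neighbouring cells. A ligand on one cell pulls on the receptor of the next, the receptor is cut by proteases, and its intracellular part enters the nucleus, where it joins Su(H) and Mam to turn on target genes. In the fly embryo the pathway is best known for lateral inhibition, by which 1 cell of a group becomes a neural precursor and holds its neighbours back. Zfh2 is known from the nervous system and from wing and leg development.

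The stricter of the authors' lists, cut by the irreproducible discovery rate (IDR), held 4344 peaks with caller signals from 64.88 to 2951 and a median of 113. All 4344 were the strongest calls of the relaxed list of the pooled replicates, which held 30000 calls down to a signal of 15.6 and mixes sites with background. Replicate 1 had 30000 relaxed calls and replicate 2 had 29690, each on a signal scale of its own (medians 16.0 and 11.7), so replicates are compared by rank, where rank 1 is the strongest call of a list. A call was placed at a gene when its summit lay in the gene body or within 1 kb of it, and at a promoter when the summit lay within 500 bp of a transcription start site (TSS). Coordinates are dm6, counted from 1.

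The sequences under 5 of the summits are shown first, because they are the places on which the results for *N*, *neur* and *Su(H)* turn: the promoter and the intronic peaks of the receptor gene, the strongest peak of *neur* and the promoter peak of *Su(H)*. Each is the plus strand of the dm6 genome sequence, 5′ to 3′, in a window of 101 bases around the summit, and the capitals mark the 11 bases centred on the summit. The *Su(H)* window was shortened to 91 bases, so that it ends before the transcript begins.
*N* promoter, chrX:3134698-3134798: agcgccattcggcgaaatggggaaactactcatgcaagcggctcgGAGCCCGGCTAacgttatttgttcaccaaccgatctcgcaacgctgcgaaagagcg
*N* intron 4, chrX:3157437-3157537: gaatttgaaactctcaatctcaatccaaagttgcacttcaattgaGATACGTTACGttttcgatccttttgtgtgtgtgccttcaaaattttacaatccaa
*N* intron 5, chrX:3162514-3162614: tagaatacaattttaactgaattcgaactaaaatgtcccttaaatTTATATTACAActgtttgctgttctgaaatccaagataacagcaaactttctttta
*neur* intron 1, chr3R:9031947-9032047: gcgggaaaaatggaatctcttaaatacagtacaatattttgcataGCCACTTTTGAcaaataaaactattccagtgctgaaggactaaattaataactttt
*Su(H)* promoter, chr2L:15039397-15039487: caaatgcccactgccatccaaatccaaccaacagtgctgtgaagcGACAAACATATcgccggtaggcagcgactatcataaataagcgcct

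The windows differed widely in base composition. The *N* promoter window was 56.4% G and C and the *Su(H)* stretch 49.5%, while *N* intron 5 had 26.7% and *neur* intron 1 had 30.7%. Over all 15 IDR peaks at the 8 genes the 101-base windows ran from 21.8% to 56.4% with a mean of 35.4%, beside a mean of 37.8% over the 4344 IDR windows.

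Of the 9 words searched on both strands, 3 were found in the 15 windows. CACACACA, a dinucleotide repeat, was present in the *N* intron 4 window, where it is read on the other strand as the run of tg pairs to the right of the capitals, and in 1.01% of all IDR windows. CAGCTG, an E-box word, was present in 1 *neur* window (5.57% of all windows), and GATAAG, the word of zinc finger factors such as Serpent, in 1 *mam* window (5.96%). The other 6 were in none of the 15. One core word of Su(H) itself, GTGGGAA, was present in 1.22% of all IDR windows, and its other form, which is spelled GTGAGAA, was present in 1.57% of them. The word known for the promoter factor Dref, TATCGATA, was present in 4.01%. The word known for the promoter factor M1BP, GGTCACAC, was present in 2.14%. A word that many homeodomain proteins bind, TAATTA, was present in 6.98%, and the repeat known for GAGA factor, GAGAGAG, was present in 1.10%. No word in the list contains another. A match describes the letters of a window, and a missing match says only that these letters were not in it.

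IDR peaks lay at 4 of the 8 genes: 3 at *N*, 5 at *neur*, 1 at *Su(H)* and 6 at *mam*, 15 in all. *Dl*, *Ser*, *fng* and *H* had 0. A peak was present at 33.4% of all protein-coding genes, and the share of 4 in 8 rests on few genes. Among all genes, long ones carried peaks more often. Of the 6 members of 15 kb or longer, 3 had a peak (*N*, *neur* and *mam*), near the 51.7% of protein-coding genes of that length that had one. Of the 2 shorter members, 1 had a peak (*Su(H)*), where 31.4% of shorter genes did. All 4 genes with a peak had one at a promoter of their own, so 4 of the 8 members did, beside 24.6% of protein-coding genes. Counts of 3 or more peaks, seen at *N*, *neur* and *mam*, were found at 2.75% of protein-coding genes of any length. These 3 genes are all 15 kb or longer, and the share of such long genes with 3 or more peaks was not counted. Counts of 5 or more, seen at *neur* and *mam*, were found at 0.531% of all genes, or 4.71% of genes of 15 kb or longer.

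The peaks were of middling strength. Their signals ran from 67.4 to 285.9 with a median of 100.1, below the list's median of 113, and 6 of the 15 lay above that median. The strongest ranked 440, and 4 of the 15 were among the 1086 strongest IDR peaks. Those 4 were all intronic: 2 in *mam*, 1 in *neur* and 1 in *N*. Of the 15 summits, 7 lay within 500 bp of a TSS of any gene (46.7%) and 8 in introns (53.3%), where all IDR summits lay at 64.5% in promoters and 26.1% in introns. The shares are not matched: the 15 were chosen for lying at these genes, most of them at the long *N*, *neur* and *mam*. The whole list was not limited to genes or to long ones, and whether the shares differ was not tested.

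**Figure D1:**
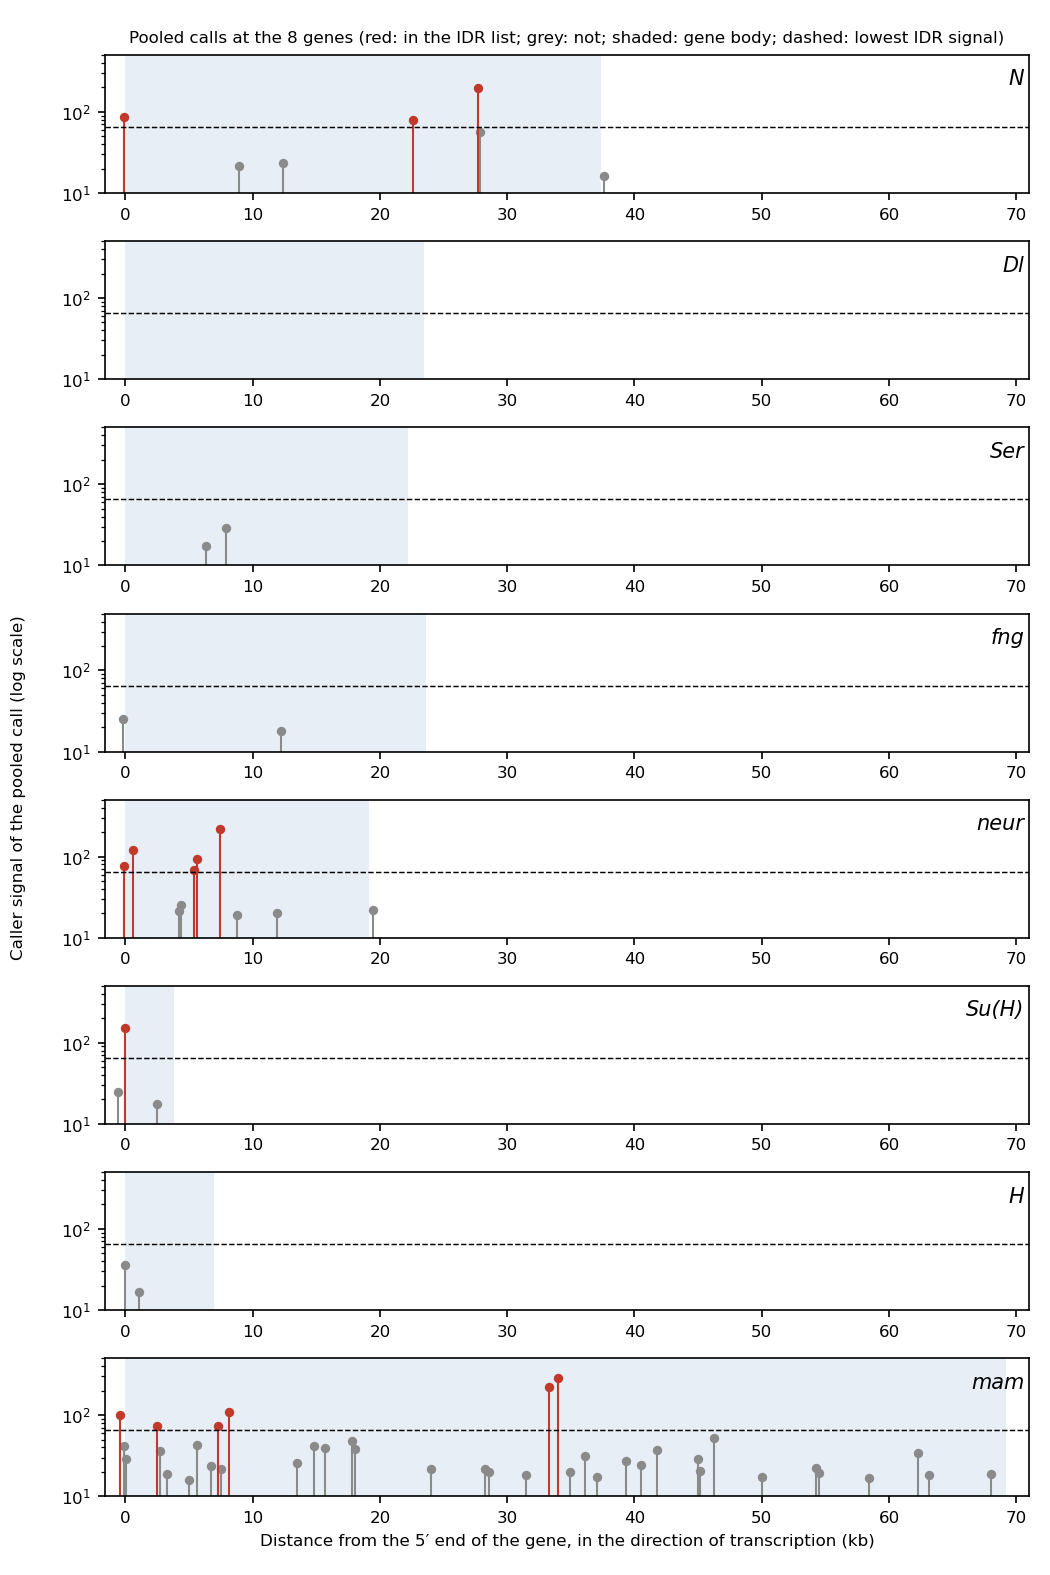
Signal of each call of the pooled replicates (log scale) against distance from the 5′ end of the gene in kb, 1 panel for each of the 8 genes on the same scale, with IDR peaks in red, other calls in grey, the gene body shaded and the lowest IDR signal dashed. Red calls are present at *N*, *neur*, *Su(H)* and *mam*, the *Dl* panel is empty, and *Ser*, *fng* and *H* have 2 grey calls each.

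*N* encodes the Notch receptor (X, 3134870 to 3172221, plus strand, 37.4 kb, 1 annotated TSS). Its strongest peak lay in intron 5 of the longest transcript, an intron of 4245 bp, with the summit at 3162564, which is 27694 bp downstream of the *N* TSS and 10576 bp from the nearest TSS, that of the neighbour *CG18508*. The signal there was 194.0 (rank 909), with 118.8 in replicate 1 (rank 746) and 76.1 in replicate 2 (rank 1271).
The promoter peak lay with its summit 122 bp before the TSS and had a signal of 86.1 (rank 3055), 52.0 in replicate 1 (rank 2704) and 37.3 in replicate 2 (rank 3430). A peak in intron 4, with its summit at 3157487, had 78.5 (rank 3448), 40.2 in replicate 1 (rank 3845) and 36.2 in replicate 2 (rank 3571). The intron 5 site was thus the strongest of *N* in the pooled list and in each replicate. Another call lay 200 bp to the right of it, at 3162764, with a signal of 56.9 (rank 5050), under the lowest IDR signal. The remaining 3 pooled calls at *N* had signals from 16.1 to 23.7, and none had a replicate 1 summit within 200 bp.

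*Dl* (3R, 19302731 to 19326217, minus strand, 23.5 kb, listed as *Delta* in the annotation) encodes the main Notch ligand of the embryo. It had 0 IDR peaks and 0 pooled calls in its body or within 1 kb. Of protein-coding genes of 15 kb or longer, 4.27% had no pooled call, and their median was 8 calls. The median length of those genes was 29429 bp, more than that of *Dl*. Replicate 1 had 1 call there, with its summit at 19326182, 35 bp inside the gene from its start, a signal of 12.01 and a rank of 24554 of 30000, and replicate 2 had 0. The nearest pooled summit lay 22244 bp beyond the gene, and the nearest IDR summit 76043 bp beyond it, 37 bp upstream of *vib*, with a signal of 87.2.

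*Ser* (3R, 27172090 to 27194267, minus strand, 22.2 kb) encodes Serrate, the other ligand. Its 2 pooled calls lay in different introns, with signals of 29.3 (summit 27186352, rank 11167) and 17.4 (summit 27187946, rank 25378). The stronger was found in both replicates, with 16.7 in replicate 1 (rank 13965) and 10.4 in replicate 2 (rank 18060). Replicate 1 had 1 call at *Ser* and replicate 2 had 6, of signals up to 13.3. The nearest IDR summit lay 18632 bp outside the gene.

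*fng* (3L, 20925891 to 20949512, minus strand, 23.6 kb) encodes a glycosyltransferase that extends sugars on Notch and so sets which ligand the receptor answers to. Its stronger pooled call lay 194 bp upstream of the TSS with a signal of 25.5 (rank 13756). It had 23.3 in replicate 1 (rank 8079) and no replicate 2 summit within 200 bp. Replicate 1 had a further call of 24.6, 29 bp inside the gene. The other, in an intron, had 17.8 and was matched in replicate 2 alone. The nearest IDR summit lay 60316 bp away. Counts of 2 or fewer pooled calls, as at *Dl*, *Ser* and *fng*, were found at 16.2% of genes of 15 kb or longer. The median length of that class, 29429 bp, is above the lengths of *Dl*, *Ser* and *fng*. No share was counted for genes of their own length.

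**Figure D2:**
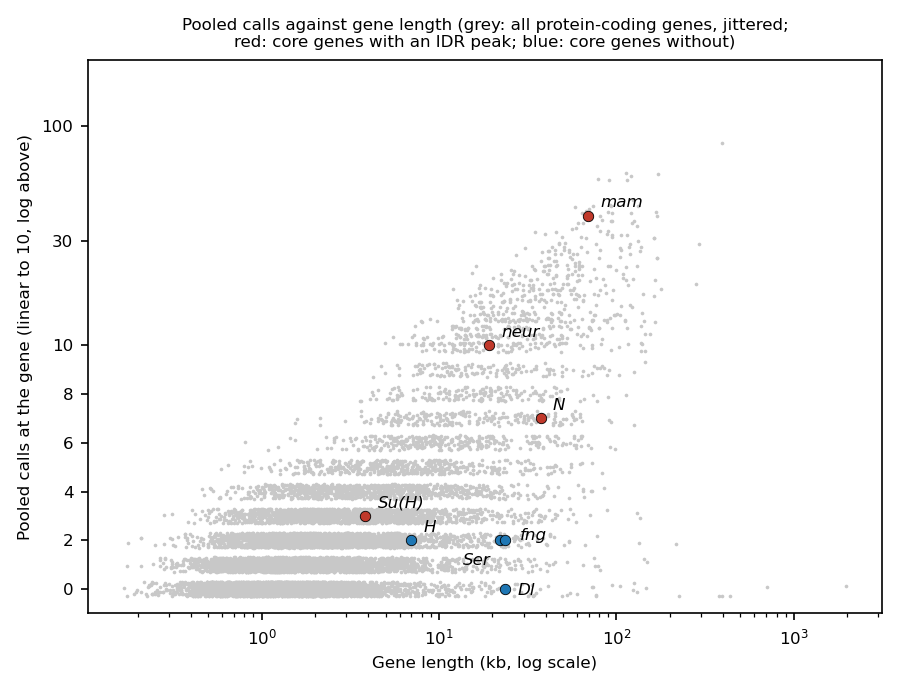
Number of calls of the pooled replicates at each gene (linear to 10, log above) against gene length in kb (log scale) for all 13945 protein-coding genes in grey, shifted slightly at random so that points can be seen, with the 8 genes in colour. *Dl*, *Ser* and *fng*, with 0, 2 and 2 calls, lie at the lower edge for their length, and *mam*, with 39, near the upper edge.

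*neur* (3R, 9020348 to 9039471, minus strand, 19.1 kb, 2 annotated TSSs) encodes the ubiquitin ligase Neuralized, which drives the endocytosis of Notch ligands in the signalling cell. With 1 kb on each side counted in the length, it had 2.37 IDR peaks per 10 kb, beside 1.71 at *Su(H)*, 0.84 at *mam* and 0.76 at *N*. The only *Su(H)* peak lay in the added 1 kb, and with a margin of 0 kb *Su(H)* had 0. For this reason *neur* and *Su(H)* are not ranked by the rate.
The strongest lay in intron 1 (15309 bp long in the longest transcript) with its summit at 9031997, 1734 bp downstream of the inner TSS. Its signal was 218.4 (rank 738), with 110.5 in replicate 1 (rank 849) and 107.7 in replicate 2 (rank 702). The replicate summits lay 7 and 0 bp from the pooled one.

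A pair of *neur* peaks lay upstream of the inner TSS, at 126 bp (summit 9033857, signal 93.9, rank 2733) and 330 bp (summit 9034061, signal 67.4, rank 4176). Their intervals overlapped and their summits were 204 bp apart, so they may be read as 1 bound region. The other pair lay at the outer end of the gene, which overlaps *hyx*, a gene for a subunit of the Paf1 complex that is transcribed the other way. The summit at 9038888 (signal 120.8, rank 1989) lay 128 bp inside *hyx* from the *hyx* TSS and 583 bp inside *neur* from the outer *neur* TSS. The summit at 9039553 (signal 76.5, rank 3558) lay 82 bp upstream of the outer *neur* TSS and within *hyx*. Which of the 2 genes these peaks belong to cannot be told apart by position.
In replicate 1 the peaks at 9034061 and 9039553 had ranks of 4684 and 5078, and in replicate 2 ranks of 5594 and 3152. Taking as many of the strongest calls of replicate 1 alone as the IDR list has peaks left 3 of the 5 *neur* peaks, and the same with replicate 2 alone left 4.

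*Su(H)* (2L, 15039488 to 15043334, plus strand, 3.8 kb) encodes the DNA-binding protein through which Notch acts in the nucleus. It had 1 IDR peak, 41 bp upstream of its TSS (15039376 to 15039516), with a signal of 150.2 (rank 1432), 67.0 in replicate 1 (rank 1930) and 83.0 in replicate 2 (rank 1123). A weaker pooled call with a signal of 24.6 lay 40 bp upstream of the TSS of the neighbour *CIAPIN1*, and one of 17.6 in an intron.

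*H* (3R, 20621938 to 20628915, plus strand, 7.0 kb) encodes Hairless, which binds Su(H) and recruits the corepressors Groucho and CtBP. It had 0 IDR peaks. Its strongest pooled call lay 50 bp upstream of the TSS, with a signal of 35.4 (rank 8728, −log10 q of 1.45). The replicates differed there: replicate 1 had 28.4 (rank 6106) and replicate 2 had 8.20 (rank 26648). The other call, in a coding exon, had 16.8 and no replicate summit within 200 bp. The nearest IDR summit lay 5295 bp from the gene, 522 bp downstream of the TSS of *Pi3K92E*.

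*mam* (2R, 13991203 to 14060356, plus strand, 69.2 kb, 3 annotated TSSs) encodes Mastermind, the coactivator that joins Notch and Su(H) on DNA. It held 39 of the 65 pooled calls at the 8 genes and 6 of their 15 IDR peaks. With 1 kb on each side counted in the length, the 39 calls are 5.48 per 10 kb, beside a median of 2.19 over genes of 15 kb or longer. The rate was 5.13 at *Su(H)*, 4.73 at *neur* and 1.78 at *N*. The *Su(H)* calls with summits at 15038901 and 15039447 lay outside the gene body, in the added 1 kb. The *Su(H)* rate thus depends on that margin.
The strongest peaks lay 659 bp apart in intron 3, an intron of 27528 bp. The summit at 14025178 had a signal of 285.9 (rank 440), and that at 14024519 had 219.4 (rank 731). The nearest *mam* TSS lay 6485 and 7144 bp downstream of them, and the nearest TSS of any gene, *CG18371*, 3442 and 4101 bp away.
At 14025178 replicate 2 had a signal of 165.9 (rank 285). The nearest replicate 1 call had its summit 43 bp away and a signal of 127.8 (rank 649), but its interval, 14024973 to 14025151, ended 27 bp before the pooled summit. The intervals of the pooled and the replicate 1 call overlapped. The peak was thus found in both replicates by distance between summits and by overlap of intervals, and in replicate 2 alone where the pooled summit had to lie inside the replicate's call. The summit at 14024519 had 121.2 in replicate 1 (rank 723) and 101.8 in replicate 2 (rank 777).

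Another 3 *mam* peaks lay in intron 2, at 2489, 7269 and 8172 bp downstream of the first TSS, with signals of 74.4, 74.0 and 110.2. The replicates ordered them differently: replicate 1 gave 27.6, 46.7 and 45.2 (ranks 6368, 3118 and 3246) and replicate 2 gave 45.9, 25.4 and 62.0 (ranks 2643, 5359 and 1730). The sixth peak, with a signal of 100.1 (rank 2520), lay 444 bp upstream of the *mam* TSS and 52 bp upstream of the TSS of *RN-tre*, a gene for a Rab GTPase activating protein. It counts as a promoter peak of *mam* at 500 bp, and not at 250 bp. A call closer to the *mam* TSS, 135 bp upstream, had a pooled signal of 42.0 (rank 7161) and was not in the IDR list.

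Agreement between the replicates was high at the 15 IDR peaks, which were selected for it. All 15 had a summit of both replicates within 200 bp (95% exact interval 78.2 to 100%, counting error only), as did 99.1% of all IDR peaks. By rank, 8 stood higher in replicate 1 and 7 in replicate 2. Of the 15, 12 were among the 4344 strongest calls of replicate 1 and 13 among those of replicate 2.
Outside the IDR list, 19 of the 50 pooled calls at the 8 genes had a summit of both replicates within 200 bp, 38.0% (95% exact interval 24.7 to 52.8%), beside 36.0% of all such calls. Over all 65 it was 34, or 52.3% (39.5 to 64.9%), beside 45.1% of the 30000 pooled calls. These intervals take the calls as independent, although 39 of the 65 lay at *mam*. By gene, 8 of 10 calls were matched in both at *neur*, 4 of 7 at *N*, 2 of 3 at *Su(H)*, 18 of 39 at *mam*, 1 of 2 at *Ser* and *H*, and 0 of 2 at *fng*. Of the 65 calls, 23.1% were in the IDR list, beside 14.5% of all pooled calls. A pooled call of any strength was present at 7 of the 8 genes, beside 73.5% of protein-coding genes.

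**Figure D3:**
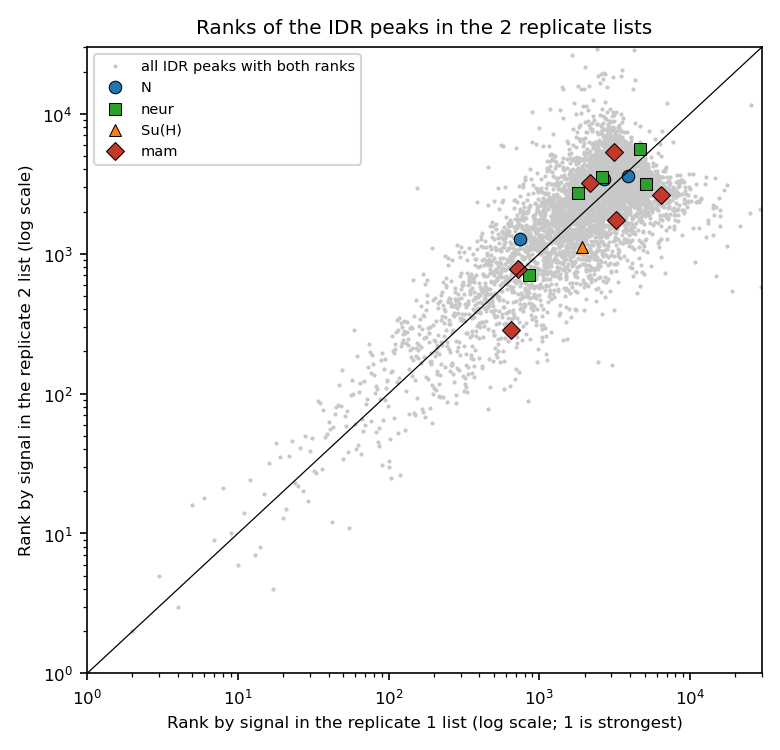
Rank by signal in the replicate 1 list (x axis) and in the replicate 2 list (y axis), both log scales with 1 the strongest, for the IDR peaks with a summit of each replicate within 200 bp, in grey, and for the 15 peaks at *N*, *neur*, *Su(H)* and *mam* in colour; the line marks equal ranks. The coloured points lie on both sides of the line, with ranks from 649 to 6368 in replicate 1 and from 285 to 5594 in replicate 2.

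The other genes of the pathway were taken from a list written from general knowledge, with earlier results of these data known. It holds 45 genes, sorted by role. An IDR peak was present at 22 of them, 48.9%, beside 33.4% of all protein-coding genes, and at an own promoter at 15, beside 24.6%. Such counts depend on the margin: of all 53 listed genes, core genes included, 26 had a peak within 1 kb, 12 with a margin of 0 kb and 37 with a margin of 5 kb. The counts by role that follow rest on 2 to 8 genes each and are to be read beside the same 33.4%, or 51.7% for genes of 15 kb or longer, such as *Fur1* and *kuz*.
Proteolysis genes had peaks at 7 of 8. All 4 subunits of γ-secretase, the complex that makes the last cut of Notch, had one: *Nct* (signal 296.2), *aph-1* (292.1), *pen-2* (114.0) and *Psn* (84.2), its catalytic subunit. The *Nct* summit lay 995 bp from the *Nct* TSS and 21 bp upstream of *CG7006*, and the *pen-2* summit lay 23 bp upstream of *Ote*. The furin gene *Fur1* had the strongest peak of the list, 686.4 at 194 bp upstream of its TSS. That peak had 375.5 in replicate 1 (rank 67) and 323.2 in replicate 2 (rank 66). The ADAM protease genes *Kul* (66.0) and *kuz* (65.6) had peaks near the lowest signal in the IDR list. At *Kul* the replicates stood apart, with 44.8 in replicate 1 (rank 3302) and 17.9 in replicate 2 (rank 8001). The *kuz* summit lay 26 bp upstream of the neighbour *B4* and had no replicate 2 summit within 200 bp. *Tace* had none, with a best pooled signal of 18.4.

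Genes of ligand endocytosis other than *neur* had peaks at 3 of 3: *aux*, the auxilin gene, at 167.8 in an intron, *mib1*, a ubiquitin ligase gene, at 89.1 with its summit on the TSS, and *lqf*, the epsin gene, at 66.7. The *aux* summit lay 582 bp upstream of the neighbour *CG14636* and 4113 bp from the nearest *aux* TSS. A weaker IDR peak lay at a promoter of *aux* itself. At *mib1* the replicates stood apart, with 70.6 in replicate 1 (rank 1791) and 19.2 in replicate 2 (rank 7377).
Genes of receptor trafficking had peaks at 6 of 8. They were *lgd* (560.7, 103 bp upstream of its TSS), *AP-2alpha* (410.0), *numb* (217.8), *Nedd4* (109.3), *Su(dx)* (91.8) and *dx* (75.8). *numb* encodes the inhibitor of Notch inherited by 1 daughter of an asymmetric division, and *lgd*, *AP-2alpha*, *Nedd4*, *Su(dx)* and *dx* encode endocytic proteins or ubiquitin ligases. The *AP-2alpha* summit lay between that gene and *ebi*, 154 and 136 bp from their TSSs, and the *dx* summit 45 bp inside *RpL7A*. *Hrs* and *spdo* had none.
In the nucleus, the corepressor genes *gro* (443.5, rank 154) and *CtBP* (190.6) both had a peak. Of the glycosylation genes other than *fng*, *rumi* had one (341.2, 89 bp upstream) and *O-fut1* and *shams* had none, with best pooled signals of 37.8 and 34.4.

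Target genes of the pathway came last in the list. Of the E(spl) bHLH genes and *Hey*, which encode repressors turned on by Notch, 2 of 8 had a peak. The *E(spl)m3-HLH* peak lay 302 bp upstream of its TSS, with a signal of 117.0. The replicates stood apart there, with 33.1 in replicate 1 (rank 4973) and 82.6 in replicate 2 (rank 1131). The *E(spl)m8-HLH* peak (164.8) was the promoter peak of its neighbour *gro*, 43 bp upstream of the *gro* TSS. Of the Bearded family genes, which encode small inhibitors of Neuralized, 0 of 8 had an IDR peak and 7 of 8 had no pooled call, where 73.5% of protein-coding genes of any length had one. Of the other known targets, *ct* had one (113.0, in an intron) and *wg*, *vg*, *sim* and *dpn* had none. The 16 E(spl), *Hey* and Bearded genes are short, with a median length of 960.0 bp, and a peak was present at 31.4% of all genes shorter than 15 kb. No share was counted for genes as short as these. Most of the 16 lie close together in the genome, so they are not separate observations. Whether the roles differ was not tested.

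**Figure D4:**
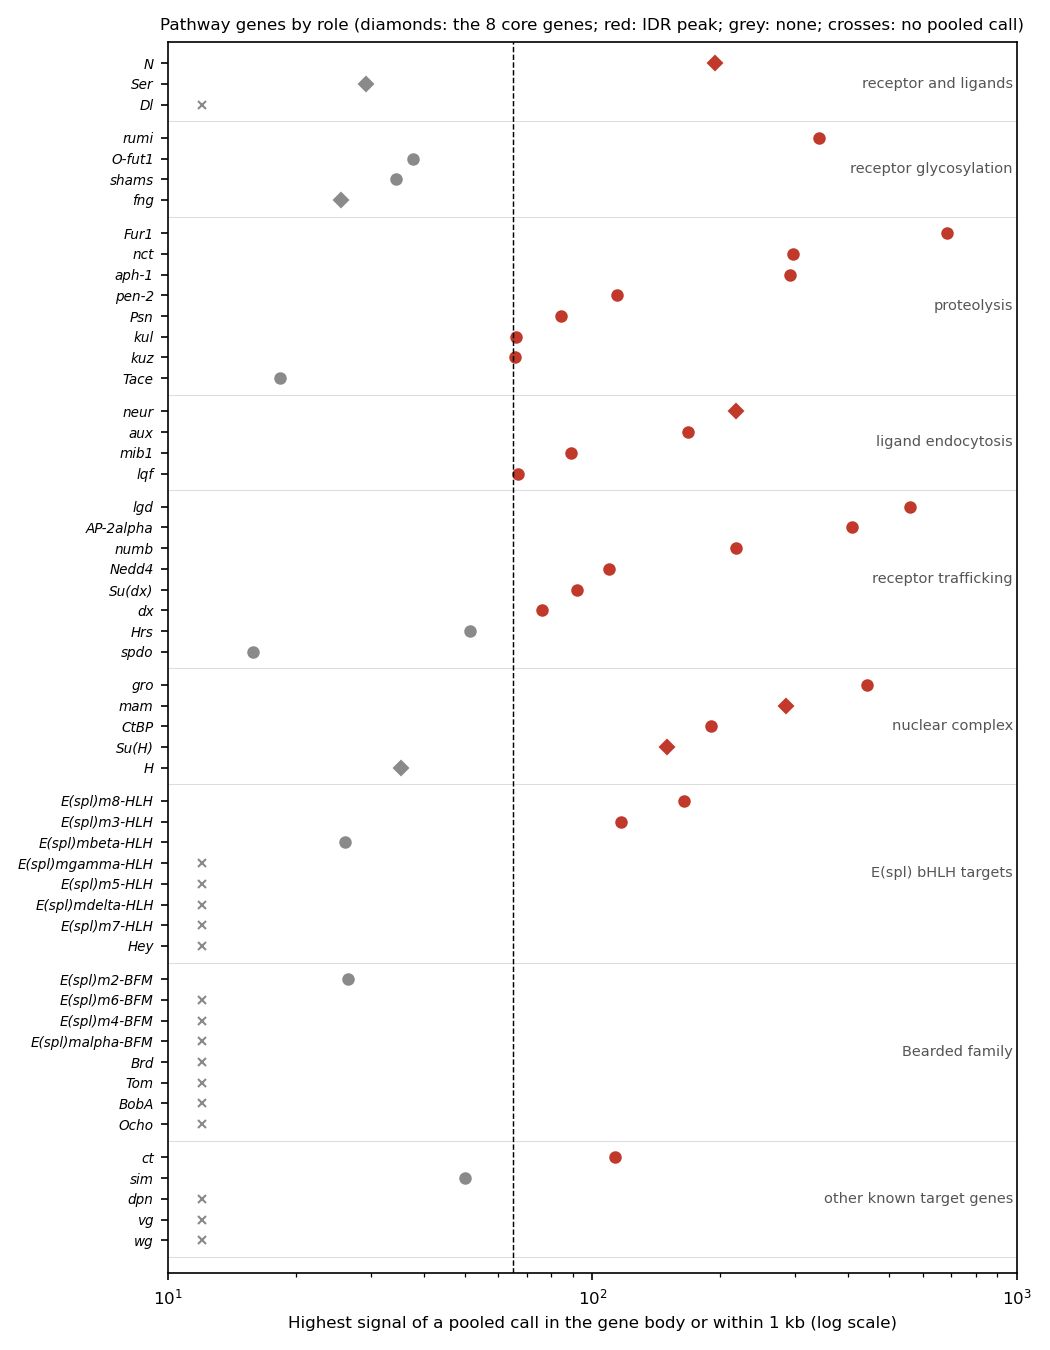
Highest signal of a pooled call in the body or within 1 kb (log scale) for each of the 53 listed genes, grouped by role, with the core genes as diamonds (except *Dl*, a cross), genes with an IDR peak in red, genes without in grey, genes with no pooled call as crosses at the left, and the lowest IDR signal dashed. Red points fill most of the proteolysis, endocytosis and trafficking rows, and 15 crosses out of 16 stand in the rows of target and Bearded genes.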

How the data were processed

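ChIP-seq peak lists of 2 replicates were used. The authors deposited them in narrowPeak layout, called against a control alignment, with dm6 and dm3 versions, per the deposited file descriptions; aligner and peak caller: not given in the sources used here. Chromatin was sonicated to 200 to 800 bp, per the labels. Column 7 of the deposited lists is the caller's signal, a score with no fixed scale, and column 9 is −log10 of a q-value. The IDR list was derived by the authors from both replicate lists and the pooled list. Read depth is unknown. The dm3 lists were not used here.

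Summits were assigned with Python 3.11.15 and pandas 2.3.3 to genes of Ensembl release 115 (same assembly), leaving out transposable elements. Nearest TSSs were taken over all transcripts, and features in the order promoter, UTR, exon, intron. Sequences came from the RefSeq genome of that assembly. Counting was tested on simulated data. Exact intervals are Clopper-Pearson at 95%. All 53 pathway genes matched, 4 of them (*Dl*, *kul*, *nct*, *lgd*) by a synonym in the RefSeq gene table. The text names all 8 members, the other listed genes with an IDR peak, the genes of nearest TSSs, and the strongest pooled call of members without an IDR peak; listed genes without a peak were named in addition. Members, lists, words and alternatives were chosen with earlier results of these data known.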

Additional observations from a re-analysis of the deposited data

How the results depend on the processing

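The same 4 genes carried an IDR peak with a margin of 5 kb, with any overlap of the interval, in the stronger part of the list, with peaks given to the nearest TSS alone and in the strongest calls of either replicate alone. With a margin of 0 kb there were 3, since the *Su(H)* summit lies outside the gene. *Dl*, *Ser*, *fng* and *H* had 0 under each of these 7 alternatives. The 15 peaks became 6 in the 2172 strongest IDR peaks and 8 when given to the nearest TSS alone. There were 11 at 0 kb, and 14 with overlapping intervals merged, an alternative chosen after seeing the data. With 1 replicate left out, 13 to 15 of the other replicate's own strongest calls lay at the genes, not all of them the same peaks. At the nearest TSS alone *N* held 1, *neur* 4, *Su(H)* 1 and *mam* 2. Genes with a promoter peak numbered 4, also with either replicate left out (4 to 4), and 3 with promoters of 250 bp. The 65 pooled calls became 15 at or above the lowest IDR signal, by construction. With 1 replicate left out, the other replicate's own list held 60 to 65 calls at the genes. The 34 calls matched in both replicates were 28 at 100 bp, 43 at 500 bp and 33 with the summit inside a call of each. Of the 53 pathway genes, 26 had a peak, 12 at 0 kb, 37 at 5 kb, 21 with the nearest TSS alone, 17 in the 2172 strongest peaks and 24 to 25 with 1 replicate left out. No paired analysis was possible because there is 1 group. Each relaxed list holds 30000 calls or fewer and ends at a lowest signal of its own, so an absent call is not an absence of binding.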
